A study of Mus musculus with 6 samples.

Results

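Solute carriers are membrane proteins that move nutrients, ions, vitamins and metabolites across the plasma membrane and the membranes of organelles. The genes described here are those whose symbol begins with Slc and a digit, without the families Slc25 of mitochondria, Slc30 and Slc39 of zinc, and without the cystine, iron, haem, glucose, lactate and amino acid carriers Slc7a11, Slc40a1, Slc11a1, Slc11a2, Slc48a1, Slc2a1, Slc2a6, Slc16a3, Slc3a2, Slc7a5 and Slc7a1. By this rule 146 of the 216 Slc symbols among 14005 listed genes were members, in 39 families that were placed in 8 classes of substrate. Membership rested on names alone, and 5 members are not carriers by name (Slc9a3r1, Slc9a3r2, Slc4a1ap, Slc7a6os and Slc2a4rg-ps). The other 141 belong to carrier families.

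Carriers work by alternating access: a binding site opens to one side of the membrane and then to the other, driven by the substrate's own gradient, by exchange, or by coupling to sodium or protons. Macrophages use them to take up amino acids and nucleosides, to move peptides and amino acids out of lysosomes after digestion, and to set the pH of cytosol and endosomes. Some lysosomal carriers also act in signalling: Slc38a9 passes the level of lysosomal arginine to the kinase complex mTORC1, and Slc15a3 and Slc15a4 take part in innate sensing of bacterial peptides and nucleic acids.

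PolyA-selected RNA was sequenced from primary macrophages grown from mouse bone marrow, in 3 libraries labelled Txn1 KO and 3 wild-type libraries. The Txn1 KO genotype joins the allele Txn1tm1.1Ees/J (Txn1 encodes thioredoxin-1, a cytosolic disulfide reductase) to B6.129P2-Lyz2tm1(cre)lfo/J, in which Cre recombinase is placed in Lyz2, the lysozyme gene that is active in myeloid cells. Wild type was C57BL/6J, without Cre, and cells with only the Cre allele were not analysed here, so the Txn1 allele, Cre, the Lyz2 insertion and the strain around them cannot be told apart. No treatment is named, both groups are given as pooled male and female, and ages are not stated. Whether replicates came from separate animals or cultures is not stated, so p-values measure library-to-library spread only, which may be technical.

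Reads counted in the listed genes summed to 22508616 to 31127228 per library in the Txn1 KO group and 29716640 to 38726953 in wild type. In these libraries 1 read was worth 0.777 to 1.35 normalized counts (reads divided by 1 size factor per library). Txn1 had 12695, 11963 and 12389 normalized counts in the libraries labelled Txn1 KO, against 13176, 12155 and 12409 in wild type (log2 difference -0.03, limma adjusted p = 0.686), a sum over the whole gene that checks nothing about the deleted stretch. Lyz2 was at 1775 to 4327 in the libraries labelled Txn1 KO and 361315 to 368284 in wild type. Txn1 KO replicate 3 and wild-type replicate 1 stood apart by liver transcripts. Of 10 hepatocyte markers 5 were listed, and Alb, the albumin gene, was at 580.0 in the Txn1 KO library and at 643 in the wild-type library, and did not exceed 0.838 elsewhere. Macrophage markers summed to 144160 to 144823 in the libraries labelled Txn1 KO and 144254 to 147663 in wild type, with 4 of 9 listed identifiers higher and 3 lower. All 8 stromal markers were listed and 6 were lower, with sums of 1238 to 2185 in the libraries labelled Txn1 KO and 2722 to 3040 in wild type. Of 3 megakaryocyte markers 2 were listed, Pf4 and Itga2b, both higher, with sums of 589 to 701 in the libraries labelled Txn1 KO and 305 to 334 in wild type. Of 6 neutrophil markers 3 were listed, 1 of them lower, with sums of 221 to 255 in the libraries labelled Txn1 KO and 240.1 to 244 in wild type, and the 4 lymphocyte and 4 erythroid markers were not analysed here. Of 8 listed Y-linked genes 7 were lower, with a median log2 difference of -1.02. The part of these shifts in the values of the carriers was not tested except in fits that left out libraries. In bulk libraries, fewer cells of a type and less RNA per cell cannot be told apart.

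The solute carriers changed in both directions, and mostly by small amounts. A gene was called where limma, on log2(normalized count + 1) over 13977 genes with a mean of at least 10, gave a Benjamini-Hochberg adjusted p under 0.05. All 146 members had such a mean. Of them 62 were called, 23 of them lower in Txn1 KO-labelled libraries than in wild type and 39 higher. That is 42.5% of members, against 21.5% of all genes tested. By direction it is 26.7% higher and 15.8% lower, against 11.5% and 9.97% of all genes. Among genes with a mean of at least 50 the shares were 45.6% of 125 members and 25.3% of all, and a fit on those genes alone called 57 of the 125, against 26.4% of all genes in it. The median log2 difference was 0.02 for members and -0.00 for all genes, and the median absolute difference was 0.17 and 0.13. The groups did not overlap for 81 members (55.5%, against 36.2% of all genes), among them 61 of the 62 called. Of the called members 48 changed by under 1.5-fold, and 11 (10 higher, 1 lower) by at least 2-fold on the log2 scale, a limit that 2.23% of all genes passed. Over all genes 216 passed it as higher and 95 as lower. Of the 10 higher members 4 had a mean under 50, a range in which 0 members were called lower.

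**Figure D1:**
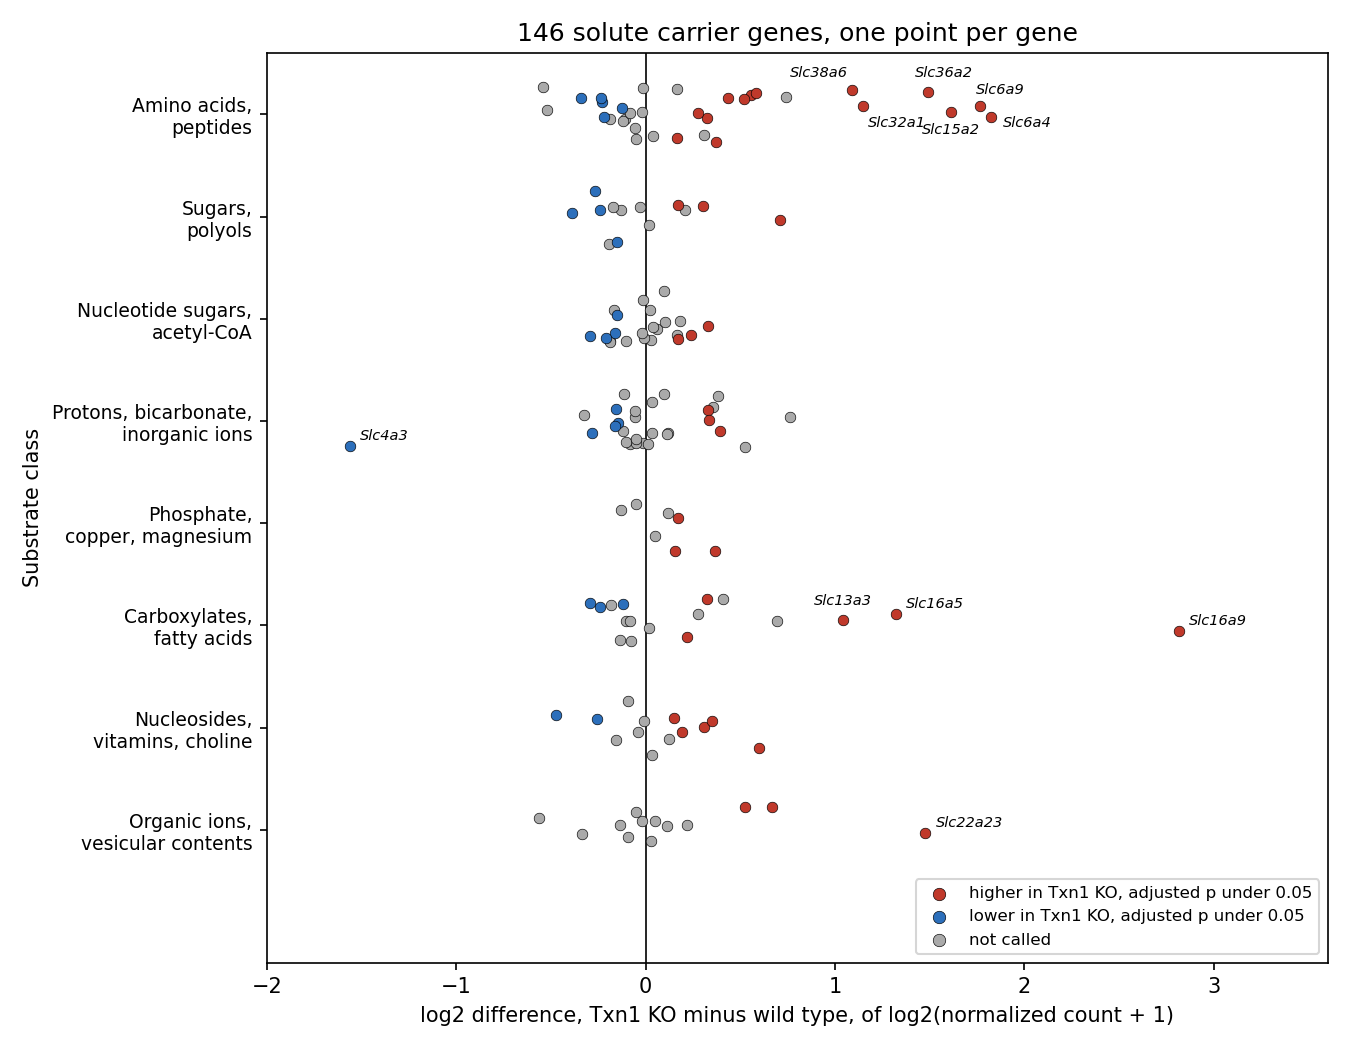
Log2 difference of each of the 146 members, Txn1 KO minus wild type, by class of substrate, with members called higher, called lower or not called in separate colours. The large differences are mostly upward, from Slc16a9 (2.81) to Slc13a3 (1.04), and Slc4a3 (-1.56) stands alone below.

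**Figure D2:**
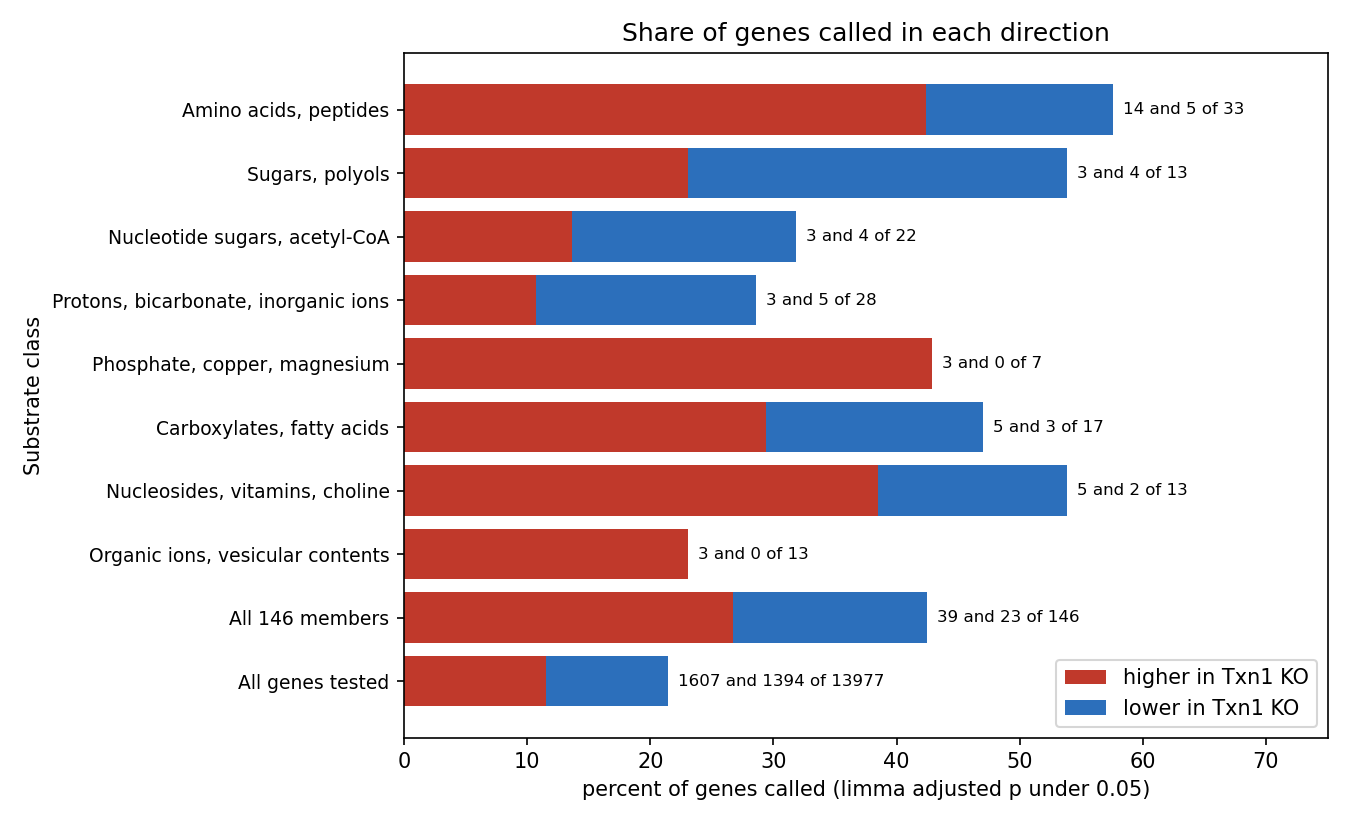
Share of members called higher and lower in each class, in percent, with all 146 members and all genes tested for reference. Amino acid and peptide carriers have 42.4% called higher and 15.2% lower, against 11.5% and 9.97% of all genes.

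Promoters were read for members in the RefSeq table (build GRCm38.p6), which held 109 of the 146, over 250 bases before the first listed start. The motifs searched on both strands were TGACNNNGC, the core of the antioxidant response element bound by NRF2, CACGTG, the E-box bound by TFEB and related factors, and the interferon-stimulated response element. TGACNNNGC stood in 8 of 29 members called higher (27.6%), 0 of 18 called lower and 8 of 62 not called (12.9%), against 10.1% of 27025 RefSeq promoters and 12.3% of genes in the deposited table. CACGTG stood in 6 of 29 called higher (20.7%), 0 of 18 called lower and 6 of 62 not called (9.68%), against 6.05% and 8.40%. The interferon-stimulated element stood in 1 of the 109. Windows before other listed starts were not counted. Slc6a9, for example, has no TGACNNNGC before its first start but has it before each of its other 2 listed starts. Shares among all genes called higher or lower were not computed, so whether the split is particular to the carriers was not tested. The motifs were chosen with earlier results of these data known, and a match is a description of letters. The sites of called members with TGACNNNGC are printed so that the flanks can be compared, 5′ to 3′ on the gene's strand, with the matched letters in capitals. The last 4 are matches on the opposite strand and so read as the reverse complement.
Slc13a3, chr2:165473380-165473408, minus: gacagtgggaTGACGGTGCtgaggccttt
Slc29a1, chr17:45599761-45599789, minus: ctccaccccgTGACCCAGCtgttcctaca
Slc45a3, chr1:131962742-131962770, plus: ccctaggtaaTGACAGGGCagtctaggag
Slc46a3, chr5:147894905-147894933, minus: tgcaagagaaTGACACTGCgctagaccaa
Slc31a2, chr4:62286255-62286283, plus: aattgccaagGCAAGGTCAattacaggtt
Slc35e4, chr11:3914728-3914756, minus: ttgcaacagtGCGGAGTCAcgaccaccag
Slc4a7, chr14:14718709-14718737, plus: acagtgattgGCTGTGTCAtaaaagcaac
Slc6a13, chr6:121300196-121300224, plus: cggaatgtggGCCGGGTCAagtttaggat

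The E-box sites of called members are printed likewise, with CACGTG in capitals. Slc13a3 holds both motifs, without overlap, and Slc20a1 holds the E-box at 2 places.
Slc13a3, chr2:165473336-165473361, minus: ccccatttccCACGTGagtccagagt
Slc20a1, chr2:129198588-129198613, plus: cagccagtccCACGTGgaccagctcc
Slc20a1, chr2:129198741-129198766, plus: ctcggcaggtCACGTGgggcgcagaa
Slc22a4, chr11:54028317-54028342, minus: ctctccctccCACGTGgggccgagaa
Slc33a1, chr3:63964843-63964868, minus: aacccgcgctCACGTGgcgacgaggg
Slc36a1, chr11:55204299-55204324, plus: aatggagcggCACGTGacctgggcta
Slc37a3, chr6:39377708-39377730, minus: tccccgaggtCACGTGagcgtcc

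The families of amino acid and peptide carriers held the most calls, with 14 of 33 higher (42.4%) and 5 lower (15.2%), against 11.5% and 9.97% of all genes. Their median log2 difference was 0.16. Members were placed by family, so the 14 include Slc6a4, a serotonin carrier, and Slc43a3, known in human cells as a carrier of purine nucleobases. The carriers that rose by 2-fold or more take up glycine, small peptides, small neutral amino acids, serotonin, and GABA or glycine into vesicles, together with Slc38a6. The carriers that fell include the most abundant one, the taurine carrier Slc6a6, and the lysosomal peptide and histidine carriers.

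Slc38a6, a member of the sodium-coupled neutral amino acid family (ENSMUSG00000044712, chromosome 12, 73286779 to 73354049, plus strand), had 1849, 1803 and 1752 normalized counts in the libraries labelled Txn1 KO, against 861, 839 and 837 in wild type. The groups lie far apart and the replicates close together. It rose 2.13-fold, a log2 difference of 1.09 (SE 0.0483, 95% interval 0.99 to 1.19, limma adjusted p = 3.77e-11). The glycine carrier Slc6a9, also called GlyT1 (ENSMUSG00000028542, chromosome 4, 117834506 to 117875198, plus strand), had 175, 139 and 141 normalized counts in the libraries labelled Txn1 KO, against 44.8, 43.5 and 42.8 in wild type, 3.47-fold (log2 1.76, SE 0.166, adjusted p = 5.65e-07). Every library labelled Txn1 KO was above every wild-type library. The gene lies in part over B4galt2 and Ccdc24 on the other strand, and whether reads were counted by strand is not given, so its reads and theirs cannot be told apart. Slc15a2, the carrier PEPT2 for di- and tripeptides (ENSMUSG00000022899, chromosome 16, 36750177 to 36784962, minus strand), had 179, 174 and 155 normalized counts in the libraries labelled Txn1 KO, against 58.1, 51.3 and 54.5 in wild type, 3.10-fold (log2 1.61, SE 0.150, adjusted p = 4.97e-07). Its groups did not overlap either.

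Slc36a2, a proton-coupled carrier of small amino acids such as glycine and proline (ENSMUSG00000020264, chromosome 11, 55158470 to 55185077, minus strand), had 146, 213 and 196 normalized counts in the libraries labelled Txn1 KO, against 72.3, 66.1 and 56.2 in wild type, 2.86-fold (log2 1.49, adjusted p = 4.33e-06). Its neighbour Slc36a1, 19.3 kb away, exports small amino acids from lysosomes and had 2768, 2678 and 2748 normalized counts in the libraries labelled Txn1 KO, against 2041, 2221 and 2279.8 in wild type. Both rose, Slc36a1 by 1.25-fold (log2 0.33, adjusted p = 4.84e-05), and a difference between them was not tested. Of the Slc6 carriers of GABA and betaine, which also lie beside each other at 5.34 kb, Slc6a12 had 831, 756 and 693 normalized counts in the libraries labelled Txn1 KO, against 609, 543 and 532 in wild type (log2 0.43, adjusted p = 4.30e-04), and Slc6a13 had 76.5, 71.8 and 65.9 normalized counts in the libraries labelled Txn1 KO, against 42.8, 57.5 and 42.8 in wild type (log2 0.58, adjusted p = 0.0478). Both rose without overlap between the groups. The serotonin carrier Slc6a4 is a low gene, with 20.9, 25.8 and 9.42 normalized counts in the libraries labelled Txn1 KO, against 3.06, 4.66 and 5.03 in wild type (log2 1.82, SE 0.524, adjusted p = 0.0190), close to the value of 3 reads in wild type. The vesicular GABA and glycine carrier Slc32a1 was likewise low, at 33.6, 18.2 and 29.6 normalized counts in the libraries labelled Txn1 KO, against 9.17, 15.5 and 10.1 in wild type (log2 1.15, adjusted p = 0.0391). Platelets take up serotonin through Slc6a4, and the megakaryocyte markers given above were also higher in these libraries; their part in its value was not tested.

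Among abundant carriers Slc43a2, or LAT4, which lets branched-chain amino acids and methionine leave cells, had 18215, 18476 and 18783 normalized counts in the libraries labelled Txn1 KO, against 14146, 14225 and 14553 in wild type. The spread within groups was small beside the gap, and it rose 1.29-fold (log2 0.37, SE 0.0310, adjusted p = 1.31e-07). Slc43a3 of the same family, the nucleobase carrier, had 399, 386 and 366 normalized counts in the libraries labelled Txn1 KO, against 243, 259.6 and 282 in wild type (log2 0.55, adjusted p = 1.92e-04). Slc7a7, the light chain y+LAT1 that exchanges cationic for neutral amino acids, had 685, 657 and 624 normalized counts in the libraries labelled Txn1 KO, against 463, 412 and 503 in wild type (log2 0.52, adjusted p = 1.07e-04), and it shares sequence on the other strand with Oxa1l. Slc7a4, of the cationic amino acid family, rose with a log2 difference of 0.28 (adjusted p = 0.0487). The lysosomal arginine sensor Slc38a9 rose by 0.17 (adjusted p = 0.0380).

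Downward, Slc6a6, the taurine carrier (ENSMUSG00000030096, chromosome 6, 91684053 to 91759066, plus strand), fell to 25334 ± 376 normalized counts in the libraries labelled Txn1 KO, against 32134 ± 345 in wild type (SD, n = 3 each; log2 -0.34, SE 0.0304, limma adjusted p = 2.53e-07). Slc15a3, which carries histidine and peptides out of endosomes and lysosomes, had 9891, 10138 and 8954 normalized counts in the libraries labelled Txn1 KO, against 11537, 10902 and 11539 in wild type (log2 -0.23, adjusted p = 7.52e-04), and part of it lies over Tmem132a on the other strand. Its relative Slc15a4 was also lower, at 2376, 2248 and 2315 normalized counts in the libraries labelled Txn1 KO, against 2540.2, 2463 and 2566 in wild type (log2 -0.13, adjusted p = 0.0373). Part of Slc15a4 lies over Glt1d1 on the other strand. The 3 Slc15 members were thus called in opposite directions, PEPT2 up and both lysosomal carriers down. Slc38a10 was lower (log2 -0.23, adjusted p = 0.00107). Slc7a8, the light chain LAT2, was lower (log2 -0.22, adjusted p = 0.0233) and is the called member whose groups overlap. The most abundant members not called were the creatine carrier Slc6a8 (log2 0.04, interval -0.03 to 0.11, adjusted p = 0.472), the neutral amino acid carrier Slc38a2 (-0.08, interval -0.17 to 0.00) and the glutamine carrier Slc1a5 (-0.11, interval -0.19 to -0.02, adjusted p = 0.0689). Slc38a3, a glutamine carrier of liver, had 1.16, 0 and 43.1 normalized counts in the libraries labelled Txn1 KO, against 58.1, 0.777 and 1.68 in wild type, high in the pair of libraries with liver transcripts and near 0 in the other 4 (named after its values were seen). Calls that a left-out library ended, with the largest adjusted p, were Slc7a4 (0.161 without both libraries with liver transcripts), Slc38a9 (0.218 without both libraries with liver transcripts), Slc32a1 (0.171 without both libraries with liver transcripts), Slc6a13 (0.157 without wild-type replicate 3), Slc15a4 (0.144 without wild-type replicate 3), Slc7a8 (0.118 without Txn1 KO replicate 1) and Slc6a4 (0.116 without Txn1 KO replicate 2). Each of these calls ended in more than the fit named, and that of Slc7a4 in every fit with libraries left out. In the like lists below, the fit named is again the one with the largest adjusted p, and others may have ended the call too.

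**Figure D3:**
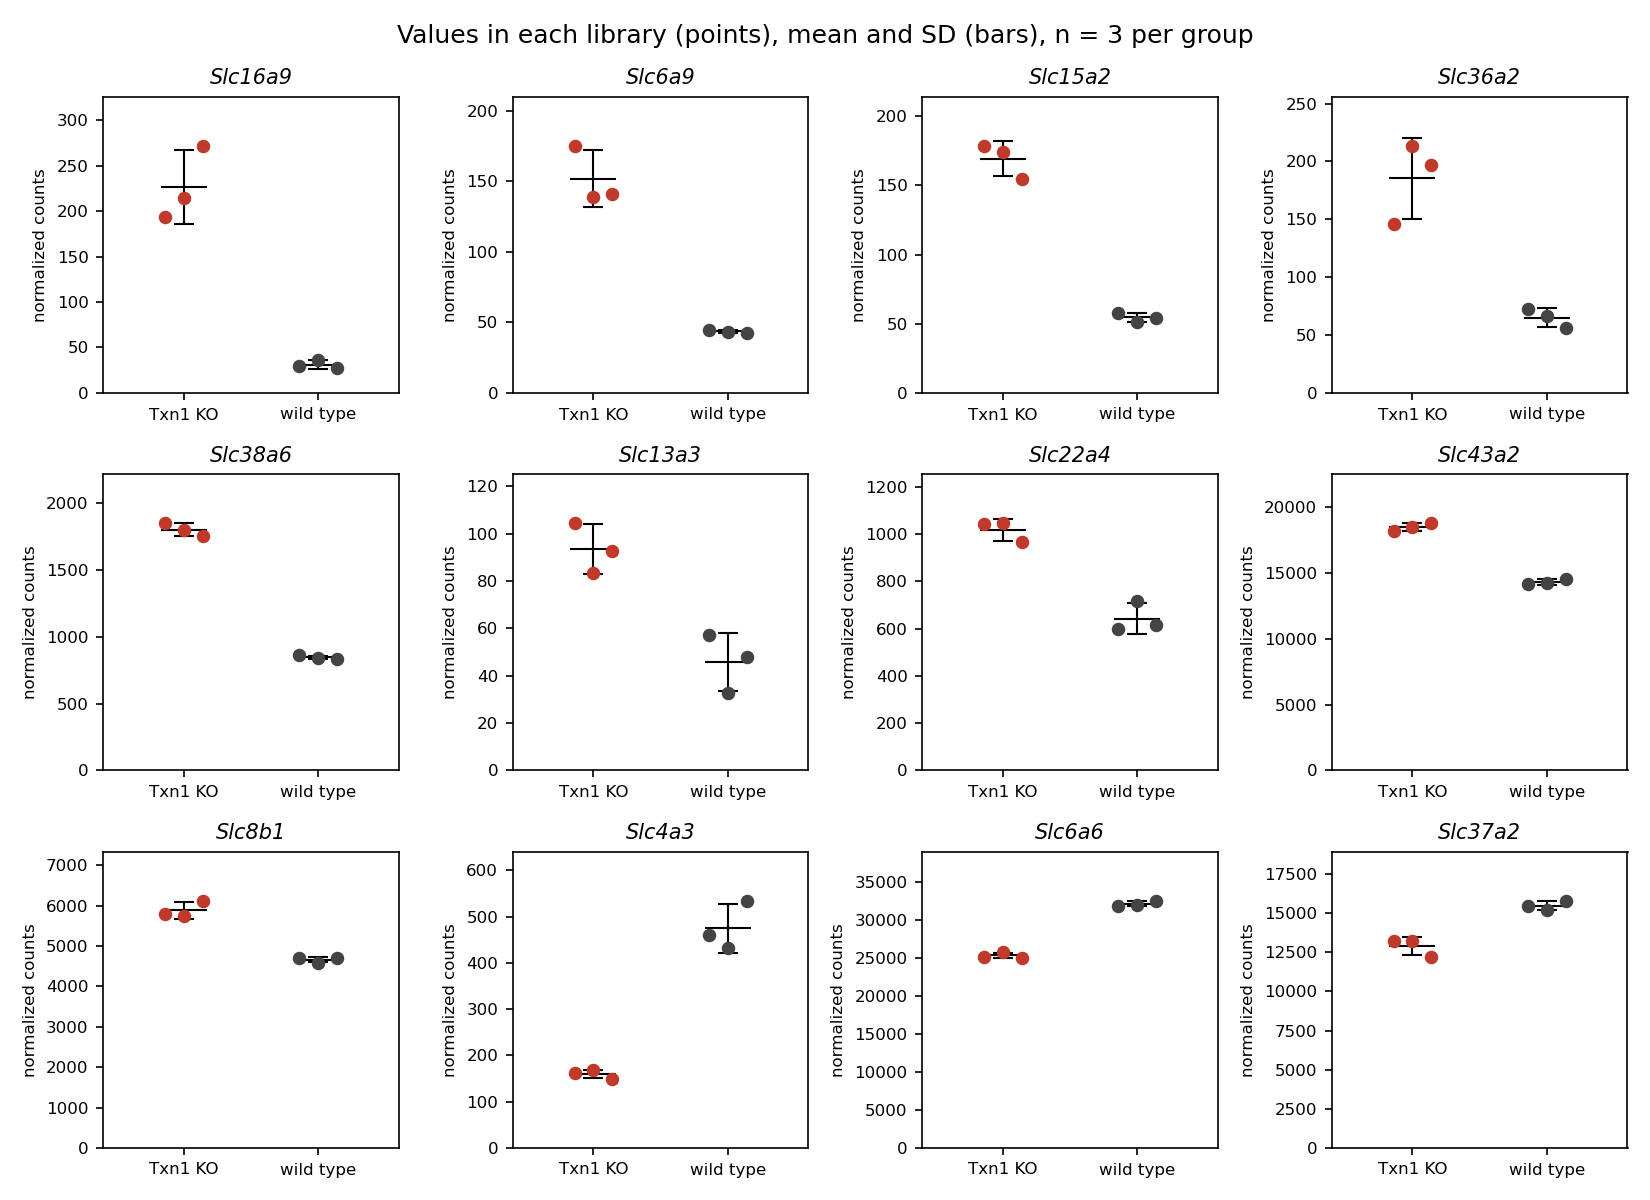
Normalized counts in each library for single members, with the 3 libraries labelled Txn1 KO left of the 3 wild-type libraries, points for libraries and bars for mean and SD. In each panel the points of the groups do not overlap, as for Slc4a3 with 149 to 167 in the libraries labelled Txn1 KO and 431 to 534 in wild type.

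Carriers of carboxylates, fatty acids and bile acids had 5 of 17 members higher (29.4%, against 11.5% of all genes) and 3 lower (17.6%, against 9.97%). Their median was 0.02. Slc16a9 had the largest rise of all members. It belongs to the monocarboxylate carrier family as MCT9 and has been linked to carnitine transport (ENSMUSG00000037762, chromosome 10, 70245100 to 70285968, plus strand). It had 194, 214 and 272 normalized counts in the libraries labelled Txn1 KO, against 29.5, 36.5 and 27.7 in wild type. The lowest library labelled Txn1 KO is several times the highest wild-type library, and the ratio of means was 7.25 (log2 2.81, SE 0.180, 95% interval 2.43 to 3.20, adjusted p = 4.21e-09). It lies on chromosome 10, as Lyz2 does, at a distance of 47.0 Mb. Slc13a3, the sodium-coupled carrier of succinate and other dicarboxylates (ENSMUSG00000018459, chromosome 2, 165405028 to 165473230, minus strand), had 104, 83.2 and 92.9 normalized counts in the libraries labelled Txn1 KO, against 57.1, 32.6 and 47.8 in wild type (log2 1.04, SE 0.216, adjusted p = 0.00188). Its groups did not overlap.

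Of the other Slc16 members, Slc16a5 was low and had 29.0, 32.5 and 28.3 normalized counts in the libraries labelled Txn1 KO, against 18.3, 8.55 and 9.22 in wild type (log2 1.32, adjusted p = 0.0156). Slc16a6, which releases ketone bodies from liver in zebrafish, had 909, 942 and 1091 normalized counts in the libraries labelled Txn1 KO, against 804, 894 and 822 in wild type (log2 0.22, adjusted p = 0.0312) and lies over Amz2 and Arsg on the other strand. Slc16a7, or MCT2, a carrier of pyruvate and lactate with high affinity, was lower at 748, 782 and 807 normalized counts in the libraries labelled Txn1 KO, against 861, 1029 and 879 in wild type (log2 -0.24, adjusted p = 0.0179). It also lies on chromosome 10, 7.94 Mb from Lyz2. The Slc16 family was therefore called in both directions, 3 higher (33.3%) and 1 lower (11.1%) of 9. Over all genes 11.5% were higher and 9.97% lower. Of 4 fatty acid transport proteins 2 fell: Slc27a4 had 1309.9, 1398 and 1230.1 normalized counts in the libraries labelled Txn1 KO, against 1638, 1553 and 1632 in wild type (log2 -0.29, adjusted p = 5.63e-04), and the more abundant Slc27a1 had 7908, 7679.6 and 7756 normalized counts in the libraries labelled Txn1 KO, against 8489.7, 8199.9 and 8659 in wild type (log2 -0.12, adjusted p = 0.0180). Slc10a3, of the bile acid carrier family and on chromosome X, rose by 0.32 (adjusted p = 0.0202). It overlaps Ubl4a on its own strand, it is 1 of 6 members on chromosome X and the only one called, and the fall of Y-linked genes stands beside it. Not called were Slc10a7 (-0.14, interval -0.26 to -0.02), the aromatic amino acid carrier Slc16a10 (-0.08, interval -0.18 to 0.02) and Slc16a13 (0.02, interval -0.14 to 0.17). Left-out libraries ended the calls of Slc16a6 (0.299 without both libraries with liver transcripts), Slc10a3 (0.123 without Txn1 KO replicate 1), Slc16a7 (0.113 without wild-type replicate 2), Slc27a1 (0.108 without wild-type replicate 3) and Slc16a5 (0.0626 without wild-type replicate 3).

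Some monocarboxylate carriers reach the cell surface with a chaperone, and which of the members need one was not tested. Emb, the chaperone embigin, rose to 9532 ± 248 normalized counts in the libraries labelled Txn1 KO, against 6627 ± 170.5 in wild type (log2 0.52, adjusted p = 6.47e-09), and Bsg, basigin, fell to 8544 ± 206 normalized counts in the libraries labelled Txn1 KO, against 9256 ± 191 in wild type (log2 -0.12, adjusted p = 0.0201; SD, n = 3 each). Emb stayed called in all 7 fits with libraries left out, and Bsg lost the call in 3 of them (adjusted p up to 0.100).

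The families of ion carriers had 3 of 28 members higher (10.7%, near the 11.5% of all genes) and 5 lower (17.9%, against 9.97%), with a median of -0.03. Members were placed by family, so the 28 include Slc9a3r1, Slc9a3r2 and Slc4a1ap, which are not carriers by name. The largest fall of all members was in this class. Slc4a3, the chloride and bicarbonate exchanger AE3 (ENSMUSG00000006576, chromosome 1, 75546266 to 75562172, plus strand), had 162, 167 and 149 normalized counts in the libraries labelled Txn1 KO, against 459.5, 431 and 534 in wild type. The groups are separated by a wide gap. Its mean fell to 0.336 of wild type (log2 -1.56, SE 0.101, 95% interval -1.78 to -1.35, adjusted p = 4.62e-09). The related exchanger AE2, Slc4a2, was lower (log2 -0.16, adjusted p = 0.00739) and lies in part over Fastk on the other strand. Slc4a7, which brings sodium and bicarbonate into cells, rose instead, with 1038, 869.8 and 984 normalized counts in the libraries labelled Txn1 KO, against 771, 770.1 and 751 in wild type (log2 0.33, adjusted p = 0.00123).

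Slc8b1, the sodium and calcium exchanger NCLX of mitochondria (ENSMUSG00000032754, chromosome 5, 120511168 to 120534024, plus strand), had 5782, 5742 and 6118 normalized counts in the libraries labelled Txn1 KO, against 4697, 4592 and 4710.5 in wild type (log2 0.33, SE 0.0364, adjusted p = 3.30e-06). It rose by 1.26-fold with no overlap. Among sodium and proton exchangers, Slc9a9 of endosomes had 1068, 1065 and 1174 normalized counts in the libraries labelled Txn1 KO, against 1284, 1418 and 1319 in wild type (log2 -0.28, adjusted p = 0.00135). Slc9a8 was lower (log2 -0.16, adjusted p = 0.0328) and Slc9a5 was higher by 0.40 (adjusted p = 0.0274). The potassium and chloride carrier Slc12a7 was lower (log2 -0.15, adjusted p = 0.0458). Of the 5 listed kinases and regulators of these chloride carriers 0 were called by limma, edgeR or DESeq2, with 1 at an unadjusted limma p under 0.05. Not called among the most abundant were the scaffold Slc9a3r1 (-0.05, interval -0.14 to 0.03), the potassium and chloride carrier Slc12a4 (-0.08, interval -0.18 to 0.01) and Slc12a9 (0.10, interval 0.01 to 0.19). Calls ended by a left-out library were Slc12a7 (0.194 without wild-type replicate 3), Slc9a5 (0.127 without wild-type replicate 3) and Slc9a8 (0.126 without wild-type replicate 1).

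Carriers of phosphate, copper and magnesium had 3 of 7 members higher (42.9%, against 11.5% of all genes) and 0 lower, with a median of 0.12. Both sodium-coupled phosphate carriers rose: Slc20a2 had 576, 492 and 588 normalized counts in the libraries labelled Txn1 KO, against 469, 416 and 399.9 in wild type (log2 0.36, adjusted p = 0.00485), and Slc20a1 had 1721, 1691 and 1624 normalized counts in the libraries labelled Txn1 KO, against 1596, 1399.6 and 1477 in wild type (log2 0.17, adjusted p = 0.0248). Slc20a2 lies in part over Smim19 on the other strand. Slc31a2, a copper carrier of endosomes, had 2219, 2317 and 2461 normalized counts in the libraries labelled Txn1 KO, against 2023, 2202 and 2058 in wild type (log2 0.15, adjusted p = 0.0294) and lies 4.32 Mb from Txn1. The copper importer Slc31a1, 62.3 kb from it, was not called (-0.05, interval -0.14 to 0.04), nor were the magnesium carriers Slc41a3 (-0.13, interval -0.26 to 0.00) and Slc41a2 (0.05, interval -0.06 to 0.16). Xpr1, the phosphate exporter, was also higher (log2 0.24, adjusted p = 2.76e-04). The calls of Slc31a2 (0.245 without both libraries with liver transcripts) and Slc20a1 (0.128 without wild-type replicate 2) ended when libraries were left out.

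The families of sugar carriers had 3 of 13 members higher (23.1%, against 11.5% of all genes) and 4 lower (30.8%, against 9.97%), with a median of -0.13. Placement by family put the pseudogene Slc2a4rg-ps, not a carrier by name, among the 13. Slc37a2, which exchanges glucose 6-phosphate for phosphate at the endoplasmic reticulum (ENSMUSG00000032122, chromosome 9, 37227585 to 37255738, minus strand), had 13256, 13219 and 12210.5 normalized counts in the libraries labelled Txn1 KO, against 15449, 15217 and 15787 in wild type. It fell to 0.833 of wild type without overlap (log2 -0.26, adjusted p = 3.94e-05). Slc37a3, a lysosomal member of the family, rose and had 1199.8, 1098 and 1117 normalized counts in the libraries labelled Txn1 KO, against 966, 963 and 839 in wild type (log2 0.30, adjusted p = 0.00179). The glucose carrier GLUT3, Slc2a3, was lower at 349, 350.2 and 288 normalized counts in the libraries labelled Txn1 KO, against 419, 443 and 427 in wild type (log2 -0.39, adjusted p = 0.00415) and shares a stretch with the gene model Gm4482. Slc2a9, the urate carrier GLUT9, was lower (log2 -0.24, adjusted p = 0.0193). Slc50a1, a sugar carrier of the SWEET type, was lower (log2 -0.15, adjusted p = 0.0389). Slc45a3 had 55.6, 51.7 and 65.9 normalized counts in the libraries labelled Txn1 KO, against 40.8, 35.0 and 29.3 in wild type (log2 0.71, adjusted p = 0.0341), and Slc45a4 was higher by 0.17 (adjusted p = 0.0449). Not called were Slc2a8 (-0.13, interval -0.26 to -0.01), Slc37a1 (0.21, interval 0.01 to 0.41) and the microsomal glucose 6-phosphate carrier Slc37a4 (0.02, interval -0.13 to 0.16). Left-out libraries ended the calls of Slc45a4 (0.207 without both libraries with liver transcripts), Slc50a1 (0.148 without wild-type replicate 3), Slc45a3 (0.135 without wild-type replicate 3) and Slc2a9 (0.0939 without wild-type replicate 3).

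The families of carriers of nucleotide sugars and acetyl-CoA, which feed glycosylation and acetylation in the Golgi and endoplasmic reticulum, had 3 of 22 members higher (13.6%, near the 11.5% of all genes) and 4 lower (18.2%, against 9.97%), with a median of 0.01. Members were placed here by family alone, so a single Slc35 member need not carry a nucleotide sugar. Slc35f6 had 4813, 4757 and 5152 normalized counts in the libraries labelled Txn1 KO, against 3939, 3934 and 3822 in wild type (log2 0.33, adjusted p = 7.63e-06). Slc33a1, which brings acetyl-CoA into the endoplasmic reticulum, had 1339, 1240.1 and 1249 normalized counts in the libraries labelled Txn1 KO, against 1025, 1102 and 1113 in wild type (log2 0.24, adjusted p = 0.00352). Both rose without overlap. Slc35f5 fell and had 1171, 1249 and 1135 normalized counts in the libraries labelled Txn1 KO, against 1397, 1486 and 1471 in wild type (log2 -0.29, adjusted p = 4.65e-04). The smaller calls were Slc35e4 (0.17, adjusted p = 0.00786) upward, and Slc35c2 (-0.16, 0.0111), Slc35e1 (-0.21, 0.0116) and Slc35a4 (-0.15, 0.0154) downward. Slc35a4 lies in part over Apbb3 on the other strand. The abundant members Slc35b1, which exchanges ATP for ADP at the endoplasmic reticulum (0.10, interval 0.00 to 0.20), the sulfate donor carrier Slc35b2 (-0.10, interval -0.20 to -0.00) and Slc35b4 (-0.01, interval -0.12 to 0.10) were not called. Calls ended by left-out libraries were Slc35e1 (0.0986 without both libraries with liver transcripts), Slc35a4 (0.0763 without both libraries with liver transcripts), Slc35c2 (0.0539 without both libraries with liver transcripts) and Slc35e4 (0.0511 without wild-type replicate 3).

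Carriers of nucleosides, vitamins and choline had 5 of 13 members higher (38.5%, against 11.5% of all genes) and 2 lower (15.4%, against 9.97%). Their median was 0.03. Slc46a3, a lysosomal carrier, had 1732, 1716 and 1759 normalized counts in the libraries labelled Txn1 KO, against 1318, 1309 and 1453 in wild type (log2 0.35, adjusted p = 5.38e-05). The reduced folate carrier Slc19a1, which imports cyclic dinucleotides in human cells, had 249, 237 and 233 normalized counts in the libraries labelled Txn1 KO, against 348, 300.0 and 355 in wild type (log2 -0.47, SE 0.0948, adjusted p = 0.00141). It fell to 0.717 of wild type, without overlap. It lies in part over the collagen gene Col18a1 on the other strand, stromal markers were lower in the same libraries, and their part in it was not tested. The thiamine carrier Slc19a2 went the other way and had 332, 388 and 332 normalized counts in the libraries labelled Txn1 KO, against 269, 289.9 and 289 in wild type (log2 0.31, adjusted p = 0.0228). The nucleoside carriers split as well: the equilibrative Slc29a1 had 3281, 3374 and 3222 normalized counts in the libraries labelled Txn1 KO, against 2947, 2782 and 2933 in wild type (log2 0.19, adjusted p = 0.00215), and the sodium-coupled Slc28a2 had 461, 479 and 501 normalized counts in the libraries labelled Txn1 KO, against 536, 629 and 563 in wild type (log2 -0.26, adjusted p = 0.0197). The riboflavin carrier Slc52a3 was higher by 0.60 (adjusted p = 0.0201) and the choline carrier-like Slc44a2 by 0.15 (adjusted p = 0.0126). Not called were the ascorbate carrier Slc23a2 (-0.10, interval -0.19 to -0.00), the lysosomal nucleoside carrier Slc29a3 (0.03, interval -0.07 to 0.14) and the choline carrier Slc44a1 (0.12, interval 0.03 to 0.22). Left-out libraries ended the calls of Slc19a2 (0.124 without Txn1 KO replicate 2), Slc52a3 (0.116 without both libraries with liver transcripts), Slc28a2 (0.116 without wild-type replicate 2) and Slc44a2 (0.0684 without wild-type replicate 2).

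Carriers of organic ions and vesicular contents had 3 of 13 members called, a share of 23.1% near the 21.5% of all genes, with a median of 0.03. The 3 were higher and belong to the Slc22 family. Slc22a4, or OCTN1, which takes up the antioxidant ergothioneine (ENSMUSG00000020334, chromosome 11, 53983123 to 54028090, minus strand), had 1043, 1045 and 965 normalized counts in the libraries labelled Txn1 KO, against 597, 716 and 614 in wild type. The groups do not overlap, and it rose 1.58-fold (log2 0.67, SE 0.0699, 95% interval 0.52 to 0.81, adjusted p = 2.00e-06). Its neighbours and relatives on chromosome 11 were not called: Slc22a21, 2.79 kb away and chosen after its values were seen, had a log2 difference of -0.10 (interval -0.42 to 0.23), and the carnitine carrier Slc22a5 had -0.05 (interval -0.22 to 0.11). Whether they differ from Slc22a4 was not tested. Slc22a18 had 312, 348 and 347 normalized counts in the libraries labelled Txn1 KO, against 233, 240.1 and 226 in wild type (log2 0.52, adjusted p = 4.04e-04), and Slc22a23 had 45.2, 31.6 and 76.7 normalized counts in the libraries labelled Txn1 KO, against 21.4, 21.0 and 10.1 in wild type (log2 1.47, adjusted p = 0.00692). Slc22a23 varied widely among the libraries labelled Txn1 KO, and its adjusted p was 0.0596 without both libraries with liver transcripts. The sialic acid carrier Slc17a5 (0.03, interval -0.06 to 0.12) and the vesicular nucleotide carrier Slc17a9 (0.11, interval -0.17 to 0.39) were not called.

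**Figure D4:**
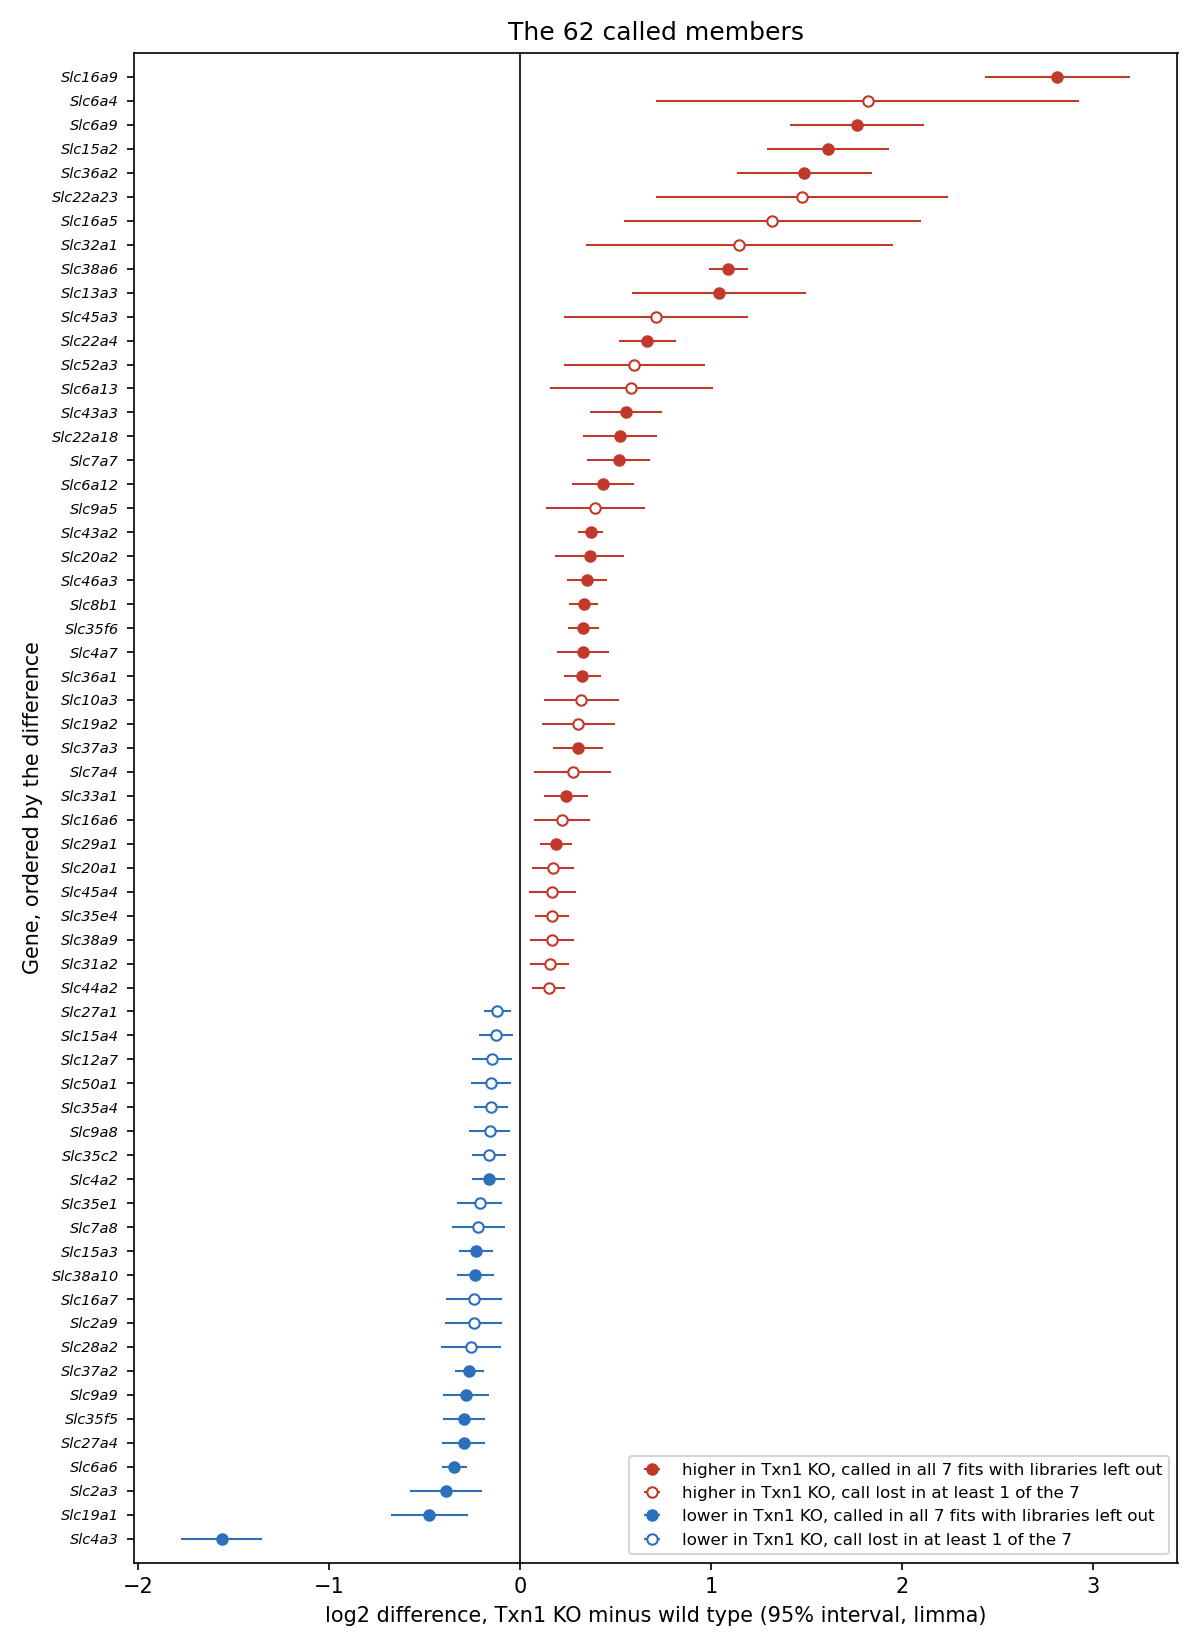
Log2 difference of the 62 called members, Txn1 KO minus wild type, with 95% intervals from limma. Filled points are the 32 members still called in all 7 fits with libraries left out, open points the 30 whose call ended in at least 1.

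Per kb of exon, the most abundant carrier was Slc6a6, at 2996 in the libraries labelled Txn1 KO and 3799.7 in wild type (mean normalized counts per kb). Slc37a2 followed among carriers with 1941 in the libraries labelled Txn1 KO and 2331 in wild type, and Slc15a3 with 1759 in the libraries labelled Txn1 KO and 2063 in wild type. Slc6a8 was at 1871 in the libraries labelled Txn1 KO and 1821 in wild type. Slc27a1 was at 1334 in the libraries labelled Txn1 KO and 1448 in wild type, Slc43a2 at 1841 in the libraries labelled Txn1 KO and 1425 in wild type and Slc8b1 at 1698 in the libraries labelled Txn1 KO and 1348 in wild type. By these group means Slc43a2 lies below Slc15a3 in wild type and above it in the libraries labelled Txn1 KO. The change of order was not tested and need not hold in each library. The members with the largest folds are scarce: Slc16a9 was at 58.6 in the libraries labelled Txn1 KO and 8.08 in wild type, and Slc4a3 at 18.6 in the libraries labelled Txn1 KO and 55.2 in wild type.

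**Figure D5:**
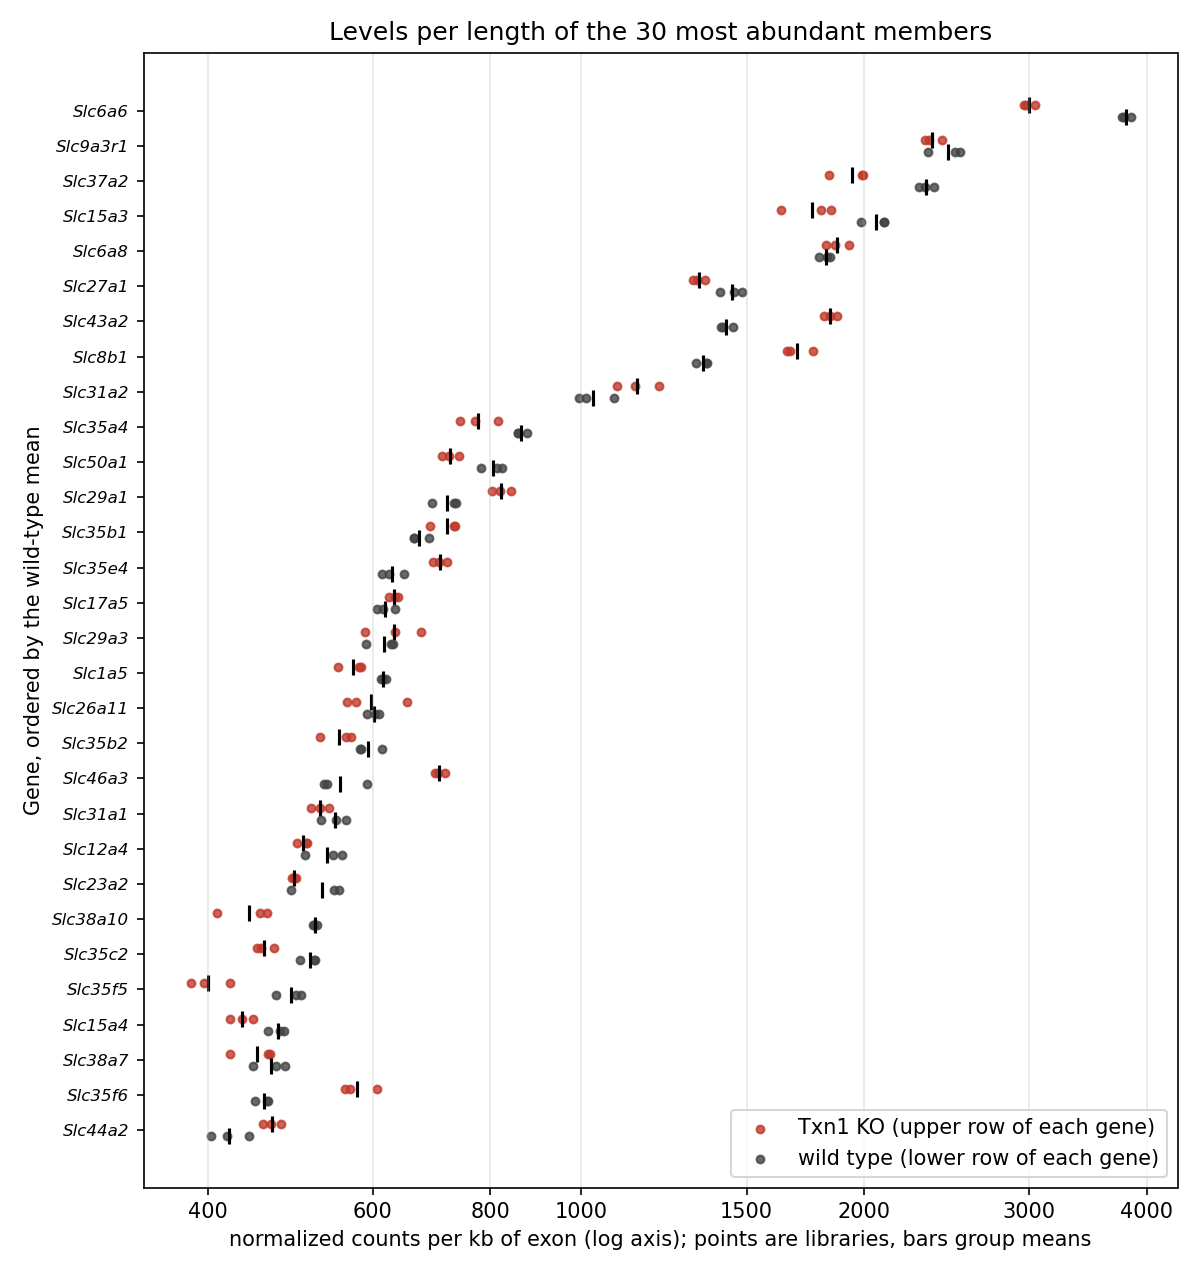
Normalized counts per kb of exon (log axis) of the 30 most abundant members, ordered by the wild-type mean, with points for libraries and bars for group means, Txn1 KO above wild type within each gene. Slc6a6 leads with 2996 in the libraries labelled Txn1 KO and 3800 in wild type.

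Among carriers that bear other names, 6 of 25 listed genes were higher and 3 lower, 36.0% in all against 21.5% of all genes tested. The cystine exporter of lysosomes, Ctns, was higher (log2 0.18, adjusted p = 0.0246), as were Slco3a1 (0.27), Slco4a1 (0.26), Mfsd7a (0.33), Mfsd14a (0.21) and Xpr1 (0.24). Pqlc3 fell to 2340.0 ± 67.5 normalized counts in the libraries labelled Txn1 KO, against 2996 ± 56.5 in wild type (SD, n = 3 each; log2 -0.36, limma adjusted p = 4.54e-06). The lysosomal Mfsd12 was lower (log2 -0.12), and so was Unc93b1, which escorts nucleic acid-sensing Toll-like receptors (-0.12). Xpr1 and Pqlc3 stayed called in all 7 fits with libraries left out. The largest adjusted p in those fits was 0.241 for Ctns, 0.188 for Slco4a1, 0.182 for Slco3a1, 0.104 for Mfsd7a, 0.0929 for Mfsd14a, 0.0907 for Unc93b1 and 0.0691 for Mfsd12. The 9 calls became 5 without Txn1 KO replicate 1 or without wild-type replicate 3, and 4 without both libraries with liver transcripts. Of 17 genes of lysosomal nutrient sensing around Slc38a9, Lamtor3 was higher (0.12), and Lamtor1 (-0.19), Lamtor5 (-0.14) and the mTORC1 subunit Rptor (-0.21) were lower. That is 4 of 17 called (23.5%), near the 21.5% of all genes. Lamtor1 stayed called in all 7 fits with libraries left out, but Lamtor3 and Lamtor5 lost the call in 5 of them (adjusted p up to 0.124 for each) and Rptor in 3 (up to 0.0636). Without wild-type replicate 2 the list held 1 call, and without wild-type replicate 3 it held 2.

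On the chromosomes of the altered loci, 2 of 8 members on chromosome 4 were called, both higher. On chromosome 10 there were 1 higher and 2 lower of 9 (33.3%). Over all chromosomes 21.5% of all genes tested were called. The shares of all genes on chromosome 4 or 10 alone were not computed, so whether members there differ from their chromosome was not tested. The called member nearest to Lyz2 was Slc16a7 (lower), at 7.94 Mb from the start of Lyz2. Slc19a1 (lower) stood at -40.2 Mb and Slc16a9 (higher) at -47.0 Mb. Without these chromosomes 57 of 129 members were called (44.2%). Calls depended on single libraries. Leaving out wild-type replicate 3 ended 22 of the 62 calls (adjusted p 0.0511 to 0.194) and left 40 members called, against 14.9% of all genes. Leaving out Txn1 KO replicate 1 ended 18 (0.0524 to 0.157) and left 44 called, against 17.5% of all genes. Without Txn1 KO replicate 2 there were 50 called members and 18.0% of all genes, and without Txn1 KO replicate 3 there were 54 and 20.2%. Without wild-type replicate 1 there were 51 and 18.2%, and without wild-type replicate 2 there were 49 and 17.4%. Leaving out both libraries with liver transcripts ended 23 calls (0.0539 to 0.299) and left 42 called, against 15.7% of all genes. The members that stayed called in all 7 such fits numbered 32, of which 21 were higher and 11 lower. Slc7a4 lost its call in all 7, and Slc12a7 and Slc45a4 in 6. Slc15a4, Slc31a2, Slc32a1, Slc38a9, Slc45a3, Slc50a1, Slc6a13, Slc7a8, Slc9a5 and Slc9a8 lost theirs in 5. Other tests of the same libraries called 61 members (edgeR on recovered reads, 21.2% of all genes), 54 (DESeq2, 19.8%) and 53 (the authors' deposited table, 19.2%). The 9 members called here but not by the authors' statistics were Slc12a7, Slc32a1, Slc38a9, Slc45a3, Slc45a4, Slc50a1, Slc6a13, Slc7a4 and Slc9a8. A constant prior in limma called 31, against 10.9% of all genes.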

How the data were processed

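PolyA RNA of 6 libraries of mouse macrophages was analysed, 3 labelled Txn1 KO and 3 wild type. Tools named in the submitters' processing notes are STAR 2.5.2b, Trimmomatic 0.36, bcl2fastq 2.20 and DESeq2, and the build is GRCm38 (mm10). The sources used here do not give the counting tool, its strand setting or the annotation. Each deposited signal value equals a whole number of reads that the authors scaled by a size factor of the library. Dividing by the step of each library recovered whole reads for 100% of values at a tolerance of 0.01 reads. The deposited log2 fold changes and the deposited p-values and adjusted p-values are the authors' own and served as an alternative. Genes below a mean of 9.28 normalized counts were not analysed here. The smallest level told from 0 at 3 reads was 2.33 to 4.04 normalized counts, counting error only. No sample column was left unused. Column names without Txn1 KO were assigned to wild type, the only other group.

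Differences were tested two-sided with limma 3.58.1 (R 4.3.3, prior with a trend) on log2(normalized count + 1) for 13977 genes whose mean was 10 or more, a scale that understates the change of low genes. Positions and exon lengths came from GENCODE M21, which matched all 146 members. Alternatives were other pseudocounts, filters, scalings, priors and thresholds, each library left out, the replicate number as a block, and the authors' statistics. On recovered reads, edgeR 4.0.16 and DESeq2 1.42.0 were run. The scripts were tested on simulated data. Every called member and the 3 most abundant uncalled members of each class are named, with exceptions marked. The members, classes, lists and motifs were chosen with earlier results of these data known. Class and list counts under the alternatives were added after seeing the data.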

Additional observations from a re-analysis of the deposited data

How the results depend on the processing

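No direction of a called member turned under any alternative. Of 146 members 62 were called, 39 higher and 23 lower. A constant prior gave 31 calls, 23 higher and 8 lower, and a 2-fold limit gave 11, 10 higher and 1 lower. Leaving out single libraries gave 40 to 54 calls, 26 to 33 of them higher and 14 to 21 lower. Without both libraries with liver transcripts 42 were called, 39 of them among the 62. On the recovered reads edgeR called 61 and DESeq2 54, and 53 were called in the authors' deposited statistics. Replicate numbers did not pair the libraries: same-numbered deviations correlated at -0.27, 0.14 and -0.33. With the replicate number as a block 52 members were called, against 19.1% of all genes; 4 of them were sugar carriers, and 2 genes of lysosomal sensing were called. Not every library correlated best with its own number.

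Under the constant prior the calls were 4 for carboxylates, 3 for nucleosides and vitamins, 2 for nucleotide sugars, 0 for phosphate and metals (limma; 3 at an unadjusted p under 0.05, and 3 calls each by edgeR and DESeq2), 4 for ions, 3 for sugars, 2 for carriers with other names, 1 for chaperones and 1 for lysosomal sensing. Without both libraries with liver transcripts they were 5 for carboxylates, 4 for nucleotide sugars, 3 for sugars and 4 for carriers with other names. Upper-quartile scaling left 1 phosphate carrier, and the authors' statistics and DESeq2 left 4 sugar carriers each. Of all genes, 10.9% were called under the constant prior and 15.7% without both libraries with liver transcripts. Upper-quartile scaling called 22.4% of them, the authors' statistics 19.2% and DESeq2 19.8%. Causes were not tested. With single libraries left out the calls by list were 13 to 17 for amino acids, 5 to 7 for carboxylates, 4 to 8 for nucleosides and vitamins, 5 to 8 for nucleotide sugars, 3 in each fit for organic ions, 1 to 2 for phosphate and metals, 5 to 8 for ions, 4 to 5 for sugars, 5 to 9 for carriers with other names, 1 to 2 for chaperones, 0 to 1 for regulators of chloride carriers and 1 to 4 for lysosomal sensing. The fits without a single library called 14.9% to 20.2% of all genes. Tested were 33 amino acid, 17 carboxylate, 13 nucleoside and vitamin, 22 nucleotide sugar, 13 organic ion, 7 phosphate and metal, 28 ion and 13 sugar members. The lists held 25 carriers with other names, 2 chaperones, 5 regulators and 17 lysosomal sensing genes. Class and list counts were not tested against the shares of all genes. A fit without a library has fewer samples, and low members are limited by depth.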
